A study of Mus musculus with 7 samples.

Results

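The 10 genes described here are Syk, a cytoplasmic tyrosine kinase, and 9 genes whose products work with it: Tyrobp, Fcer1g, Clec4n, Plcg2, Btk, Vav1, Lcp2, Blnk and Card9. They were chosen by name, for their place in the pathway that the inhibitor R406 acts on, and with earlier results of these data known. All 10 were found among the 53715 genes of the deposited expression table. R406 is the active form of fostamatinib and inhibits Syk, among other kinases. It was given to fibroblasts of mouse embryos at embryonic day 13.5, from the OG2 strain CBA-Tg(Pou5f1-EGFP)2Mnn/J, in which Pou5f1 sequence drives a green fluorescent protein. All RNA-seq libraries came from cells in Stage 1 medium of chemical reprogramming, a mix of basic fibroblast growth factor, valproic acid, CHIR99021, 616452, Parnate, forskolin, AM580, EPZ004777 and vitamin C that was used for 12 days. RNA-seq covered 2 libraries with R406 and 2 with the solvent DMSO. CUT&Tag, in which an enzyme held by an antibody cuts and tags the DNA nearby, was run with an antibody to FLAG on other fibroblasts of the same strain. Those cells carried rtTA and a doxycycline-driven FLAG-Nfatc1 brought in by lentivirus, so the protein they show is an added copy of this transcription factor, and had been in Stage 1 medium with doxycycline and either R406 or DMSO for 4 days, with 1 library per condition. A blank without primary antibody was not analysed here, and the sources used here give neither the dose of R406 nor the day of RNA harvest.

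Syk is known for its part in cells of the blood. Receptors that see antibody, microbial sugars or damaged cells often have no signalling tail of their own and rely on small adaptors, Tyrobp and Fcer1g, whose tails hold an immunoreceptor tyrosine-based activation motif (ITAM). Src family kinases phosphorylate the motif, Syk docks on it and becomes active, and it then phosphorylates the scaffolds Lcp2 and Blnk, which gather Vav1, Btk and Plcg2. Plcg2 releases calcium from stores, the step that leads to calcineurin and NFAT factors, and Card9 takes the signal to NF-kappaB. In macrophages and mast cells the whole chain is in use, while fibroblasts are known for integrin and growth factor signals that run through widely expressed relatives of several of these proteins.

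Values are TPM, transcript abundances scaled by length and to the same total in each library, so the read depth behind them is unknown. The R406 libraries held 14045 and 13652 genes at 1 TPM or more, and the DMSO libraries 13580 and 13537. All 9 fibroblast markers examined were expressed, with summed levels of 5781 and 4112 TPM in R406 libraries and 4391 and 3487 TPM in DMSO libraries, which fits the labelled source, and 8 epithelial markers summed to 786 and 446 TPM in R406 libraries, against 156 and 149 TPM in DMSO libraries. Ribosomal protein genes took 19.4% and 22.4% of the R406 totals and 14.1% and 15.5% of the DMSO totals. Nothing in the labels says that libraries came from separate cultures, so the p-values measure the spread between these libraries, which may be technical.

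The receptor Clec4n and the adaptors Tyrobp and Fcer1g, the most abundant of the 10 genes with DMSO, fell to under 0.4 TPM with R406, whereas Syk itself lay between 0.958 and 1.74 TPM in all 4 libraries. Clec4n encodes Dectin-2, a receptor for the mannans of fungi that signals through Fcer1g. It was listed at 0.0490 and 0 TPM in the R406 libraries and had 18.2 and 15.6 TPM in the DMSO libraries. The difference in log2(TPM + 1), R406 minus DMSO, was −4.12 (limma 95% interval −4.62 to −3.63, adjusted p = 0.00785), where limma's p is adjusted by Benjamini-Hochberg over the 13929 genes whose mean over the libraries reached 1 TPM. Both R406 values lay far below both DMSO values.

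Tyrobp, the adaptor of receptors such as Trem2, had 0.230 and 0 TPM in the R406 libraries and 8.43 and 9.14 TPM in the DMSO libraries, a log2 difference of −3.14 (interval −3.67 to −2.61, limma adjusted p = 0.0110). Fcer1g, the gamma chain shared by Fc receptors and several lectins, had 0.287 and 0.386 TPM with R406 and 6.69 and 9.21 TPM with DMSO, a log2 difference of −2.73 (interval −3.31 to −2.15, limma adjusted p = 0.0127). The groups were apart in both genes, and the summed level of the adaptor pair was 0.518 and 0.386 TPM in R406 libraries, against 15.1 and 18.4 TPM in DMSO libraries. Each of these 3 genes passed the filter on low values only through the DMSO libraries, so their number among the 5 members tested carries no weight by itself. Of these 5, 3 fell and 0 rose, while over all genes tested 4.05% fell and 4.26% rose, 8.31% in all, and 26.8% had an unadjusted p under 0.05. With a pseudocount of 0.1 in place of 1 the 3 log2 differences were −7.12, −5.61 and −4.20 for Clec4n, Tyrobp and Fcer1g, and with no filter on low values each had a limma adjusted p of 0.0593, where 0 genes of 27879 passed and 5394 had an unadjusted p under 0.05.

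**Figure D1:**
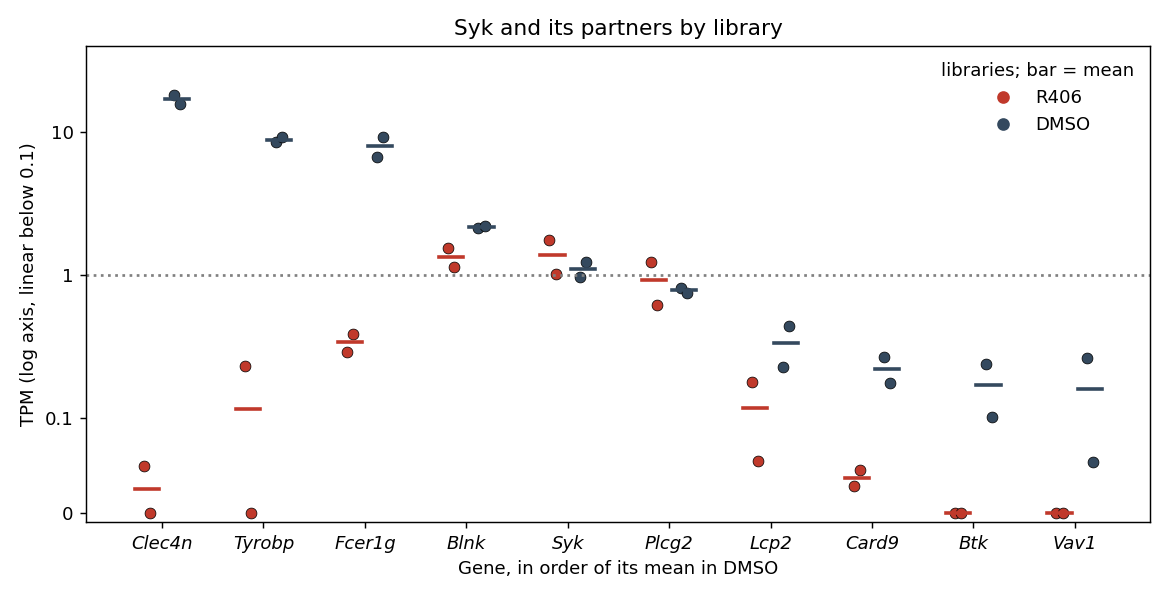
TPM of the 10 genes in each library (points, R406 left of DMSO in each gene) with the mean of the 2 libraries (bars), on an axis that is logarithmic above 0.1 TPM and linear below, with a dotted line at 1 TPM. Clec4n, Tyrobp and Fcer1g lie above 6 TPM in both DMSO libraries and under 0.4 TPM in both R406 libraries, while Syk and Plcg2 overlap between the groups.

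Syk had 1.74 and 1.02 TPM in the R406 libraries and 0.958 and 1.24 TPM in the DMSO libraries. The first R406 library was the highest and the other 3 lay close together, so the groups overlapped. The mean was 1.38 ± 0.516 TPM with R406 and 1.10 ± 0.196 TPM with DMSO (SD, n = 2 libraries each), and the log2 difference of 0.17 had a limma 95% interval of −0.44 to 0.78 and an adjusted p of 0.705. The log2(TPM + 1) scale understates changes at such levels, and a change within that interval in either direction would not have been seen. Without the first R406 library the log2 difference was −0.05 (limma adjusted p = 0.930), so the sign rests on that library. The messenger level bears on the amount of Syk RNA and says nothing of kinase activity, which R406 inhibits at the protein.

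Blnk, a scaffold known from B cells and macrophages, had 1.53 and 1.14 TPM with R406 and 2.13 and 2.18 TPM with DMSO. The groups did not overlap, but the log2 difference of −0.44 (interval −0.94 to 0.07) did not pass (limma adjusted p = 0.237). Plcg2, the phospholipase that makes the calcium-releasing messenger in blood cells, had 1.23 and 0.610 TPM with R406 and 0.808 and 0.750 TPM with DMSO. Its R406 libraries lay on either side of the DMSO libraries, and with its mean of 0.850 TPM it fell under the filter and was not tested. With the filter set at 0.2 TPM its log2 difference was 0.09 and limma's adjusted p was 0.826.

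The last 4 genes stood under 0.5 TPM everywhere and were not tested. Lcp2, a scaffold of T cells, mast cells and platelets, had 0.178 and 0.0548 TPM with R406 and 0.226 and 0.440 TPM with DMSO. Card9, the adaptor that carries Dectin signals to NF-kappaB, had 0.0283 and 0.0449 TPM with R406 and 0.267 and 0.174 TPM with DMSO. Btk, a Tec family kinase, was listed at 0 in both R406 libraries and had 0.237 and 0.1004 TPM with DMSO. Vav1, a Rac exchange factor of blood cells, was listed at 0 in both R406 libraries and had 0.262 and 0.0528 TPM with DMSO. In each of the 4 genes both R406 libraries were below both DMSO libraries, but at such levels a value may rest on a handful of reads. RefSeq has another gene, 4930469K13Rik, over part of Lcp2 and Gm13562 over part of Card9. The library kit does not mark strand, so reads of such partners cannot be told apart.

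Counted over all 10 genes, both R406 libraries lay below both DMSO libraries in 8, above them in 0, and on overlapping values in Syk and Plcg2. Of 27879 genes with a value above 0 in any library, 23.2% had both R406 libraries below both DMSO libraries and 21.4% had them above. Among the 13950 of these with a mean under 1 TPM, 16.2% lay below, and among the 13929 tested genes 30.2% lay below and 25.9% above. The summed level of the 10 genes was 5.28 and 3.25 TPM in R406 libraries and 38.2 and 38.9 TPM in DMSO libraries. The order of the levels differed between the conditions. With R406, Syk (mean 1.38 TPM), Blnk (1.34) and Plcg2 (0.921) came first, and their values overlapped, so the order among these 3 is not set. Fcer1g (0.337) followed, and the other 6 stood under 0.24 TPM in each R406 library. With DMSO, Clec4n (mean 16.9 TPM) came first, then Tyrobp (8.79) and Fcer1g (7.95), whose libraries overlapped, then Blnk (2.15), Syk (1.10) and Plcg2 (0.779), and the other 4 genes, which overlapped in part, came last.

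Markers of macrophages moved with the receptor and the adaptors. Of 20 macrophage markers, a list that holds none of the 10 genes, 17 had both R406 libraries below both DMSO libraries and 0 had them above. Of all 27879 genes with a value above 0 in any library, 23.2% lay below and 21.4% above. Of the 12 tested, 11 fell and 0 rose, where 4.05% fell and 4.26% rose over all genes tested. The median log2 difference was −2.02, against a median of −0.015 over all genes tested. Of these 11, 9 had a mean under 1 TPM with R406 and so, like the 3 members, passed the filter only through the DMSO libraries, and their count and median carry no weight by themselves. Their summed level was 21.8 and 23.6 TPM with R406 and 291 and 242 TPM with DMSO. Without Lyz2, a lysozyme gene, and Cd14, a co-receptor for bacterial lipopolysaccharide, the other 18 summed to 3.70 and 4.91 TPM with R406 and 69.3 and 54.1 TPM with DMSO. Ctss was listed at 0 in both R406 libraries and had 2.68 and 1.97 TPM with DMSO. Ptprc, Ly86, Cx3cr1 and Lyz1 were also listed at 0 in both R406 libraries, but reached at most 0.334 TPM with DMSO. Lyz1 was at 0 in 1 DMSO library too. Spi1, which encodes the master transcription factor of myeloid cells, had 0.0338 and 0.0329 TPM with R406 and 2.94 and 1.84 TPM with DMSO. Cd14 was the 1 tested marker that did not pass, at 14.2 and 15.4 TPM with R406 and 14.8 and 9.04 TPM with DMSO. In bulk RNA, fewer macrophages and less of these transcripts per cell cannot be told apart, and the part of macrophage content in the falls of Clec4n, Tyrobp and Fcer1g was not tested.

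**Figure D2:**
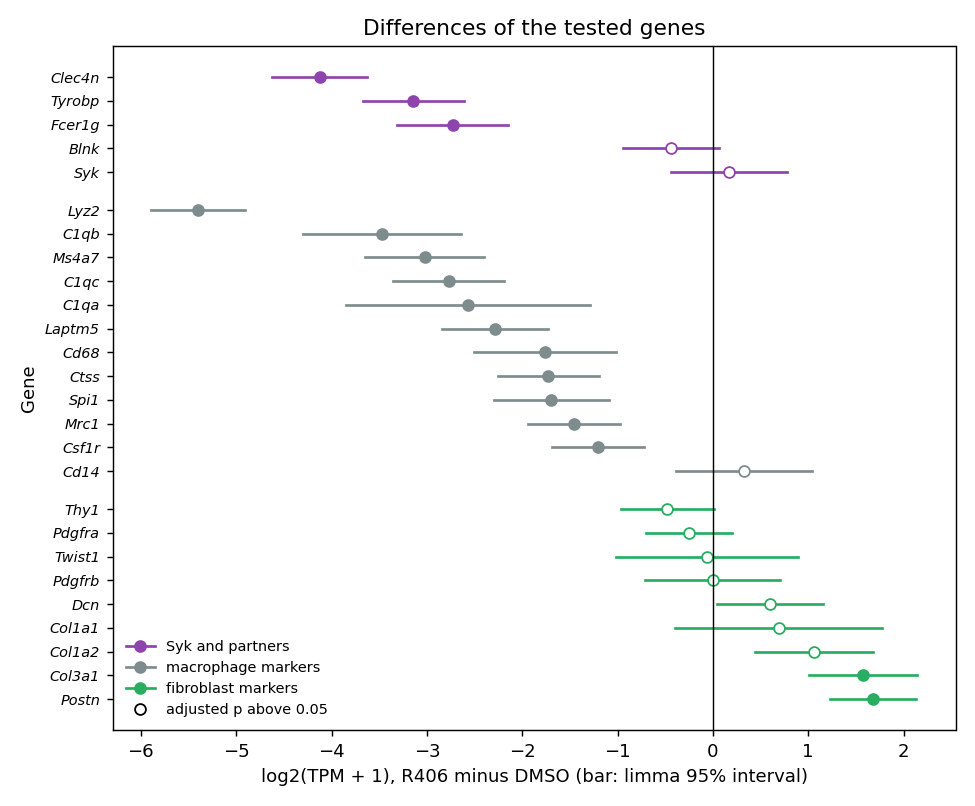
Difference in log2(TPM + 1), R406 minus DMSO, with limma's 95% interval, for the 5 members tested, 12 macrophage markers and 9 fibroblast markers, with open symbols where the adjusted p is above 0.05. Clec4n, Tyrobp and Fcer1g lie among the macrophage markers between −4.12 and −2.73, and Syk and Blnk lie near 0, where the fibroblast markers spread to both sides.

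Markers of other blood cells that use this pathway differed in level and direction. Of 5 B cell markers 0 could be tested, with sums of 0.278 and 0.180 TPM in R406 and 0.345 and 0.246 TPM in DMSO libraries, and of 6 T and NK cell markers 0 could be tested, with sums of 1.64 and 1.48 TPM against 0 and 0.135 TPM. In the T and NK cell list Nkg7 had 1.32 and 1.21 TPM with R406 and 0 in both DMSO libraries. Cd2 had 0.322 and 0.269 TPM against 0 and 0.135 TPM, and Cd3d, Cd3g, Klrb1c and Ncr1 were listed at 0 in all 4 libraries. Among 7 mast cell markers, 2 of 2 tested rose, namely Kit, a receptor tyrosine kinase, and the chymase gene Cma1, with log2 differences of 1.10 for Kit and 1.33 for Cma1. Cma1 had a mean of 0.616 TPM with DMSO and passed the filter only through the R406 libraries, so this count carries no weight by itself. The 7 mast cell markers summed to 15.8 and 12.9 TPM with R406 and 5.11 and 5.16 TPM with DMSO. Both R406 libraries lay above both DMSO libraries in 4 and below in 0, beside 21.4% and 23.2% of genes above 0 in any library. Tpsb2, a tryptase gene, and Hdc, which encodes the enzyme of histamine synthesis, stood under 1 TPM and were among these 4, while Cpa3, Tpsab1 and Mcpt4 were listed at 0 in both R406 libraries and in 1 of the DMSO libraries, and were under 0.08 TPM in the other. Both calls were lost on leaving out either DMSO library or R406 replicate 1, with limma adjusted p of 0.0878 to 0.161 for Kit and 0.0555 to 0.123 for Cma1. Among 6 neutrophil markers 1 of 2 tested fell, S100a8 (log2 −1.68), a call lost without DMSO replicate 1 (limma adjusted p = 0.101) or DMSO replicate 2 (0.0544), and the list summed to 6.31 and 9.33 TPM with R406 and 31.9 and 26.97 TPM with DMSO. Among 6 platelet markers 2 of 4 tested fell, the chemokine genes Pf4 and Ppbp (log2 −4.72 for Pf4 and −4.603 for Ppbp), which macrophages can also express, and the list summed to 14.2 and 5.76 TPM with R406 and 102.6 and 84.5 TPM with DMSO. Pf4 and Ppbp had a mean under 1 TPM with R406 and passed the filter only through the DMSO libraries, so their count carries no weight by itself. Neither of 2 tested osteoclast markers and none of 3 tested endothelial markers passed limma's threshold, with 1 each at an unadjusted p under 0.05. Of 8 epithelial markers 6 rose, and of 9 fibroblast markers 2 rose, the matrix genes Postn and Col3a1. Over all genes tested 4.26% rose and 4.05% fell. Without DMSO replicate 1 the calls of Postn (limma adjusted p = 0.0653), Col3a1 (0.116) and the epithelial genes Krt8 (0.0569) and Cdh1 (0.0780) were lost, and that of Col3a1 also without DMSO replicate 2 (0.0638).

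The rest of the pathway was read from 5 lists that leave out the 10 genes, 86 genes in all. Of the 41 that could be tested, 0 rose and 3 fell with p adjusted over all genes tested, 15 had an unadjusted p under 0.05, and the median log2 difference was −0.09. The shares over all genes tested were 4.26% higher, 4.05% lower and 26.8% at an unadjusted p under 0.05. Each of the 3 had a mean under 1 TPM with R406 and passed the filter only through the DMSO libraries, so that count carries no weight by itself. All 3 that fell are surface receptors of myeloid cells. Fcgr3, an activating Fc receptor that needs Fcer1g, had 0.765 and 1.07 TPM with R406 and 7.60 and 6.30 TPM with DMSO (log2 −2.05, limma adjusted p = 0.0165). Clec4d, a lectin receptor that also pairs with Fcer1g, had 0 and 0.0505 TPM with R406 and 3.00 and 2.40 TPM with DMSO (log2 −1.85, limma adjusted p = 0.0171). Fcgr2b, the inhibitory Fc receptor, had 0 and 0.0188 TPM with R406 and 4.71 and 4.597 TPM with DMSO (log2 −2.49, limma adjusted p = 0.0121). So an activating and an inhibitory Fc receptor were both lower. Fcgr2b and Fcgr3 have closely similar outer domains, and how reads were divided between them is not given in the sources used here.

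By role, 2 of 6 tested receptors and adaptors fell, 0 of 7 Syk and Src family kinases, 0 of 10 scaffolds and exchange factors, 0 of 12 lipase and kinase effectors and 1 of 6 negative regulators, and 0 rose in any of these lists. The median log2 difference was −1.08 for receptors and adaptors, −0.03 for kinases, −0.08 for scaffolds, 0.0037 for effectors and −0.56 for negative regulators. Trem2, Clec4d, Fcgr3 and Itgb2 among the receptors, and Fcgr2b and Sirpa among the negative regulators, had a mean under 1 TPM with R406. They passed the filter only through the DMSO libraries. Among the effectors the same held for Prkcb, while Pik3cd had a mean of 0.834 TPM with DMSO and passed only through the R406 libraries. The counts and medians of these lists, and their contrast with the other lists, therefore carry no weight by themselves. Trem2, a lipid receptor of Tyrobp, had 1.03 and 0.551 TPM with R406 and 4.19 and 1.98 TPM with DMSO (limma adjusted p = 0.1085). It passed without DMSO replicate 2 (0.0421) and with the replicate number as a block (0.0176). Itgb2, the integrin chain of white blood cells, had 0.589 and 0.418 TPM against 2.55 and 1.55 TPM (adjusted p = 0.0726), and passed with quantile normalization (0.0378) and with the block (0.0234). Among other relatives of the members, Clec7a, which encodes Dectin-1, was at 0.0301 and 0 TPM with R406 and 0.302 and 0.395 TPM with DMSO, the lectin gene Clec4e at 0 and 0.0125 TPM against 0.292 and 0.222 TPM, and the adaptor gene Hcst at 0.263 and 0.223 TPM against 0.620 and 0.514 TPM, all under the filter. The T cell adaptor gene Cd247 was listed at 0 in all 4 libraries. The Src family kinases that phosphorylate ITAMs stayed well expressed. Src had 21.3 and 13.8 TPM with R406 and 35.3 and 23.8 TPM with DMSO (log2 −0.72, limma adjusted p = 0.222), and Fyn had 25.0 and 17.9 TPM against 18.9 and 16.5 TPM (log2 0.25, adjusted p = 0.560).

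Among scaffolds, Gab2 had 1.34 and 1.53 TPM with R406 and 3.20 and 2.74 TPM with DMSO (adjusted p = 0.0939). Among the effectors, Pik3cb, a catalytic subunit of phosphoinositide 3-kinase, came nearest to a call on the higher side, at 3.85 and 3.45 TPM with R406 and 1.34 and 1.59 TPM with DMSO (log2 0.92, limma adjusted p = 0.0540). It passed with median centring, with quantile normalization, without mitochondrial and ribosomal protein genes and with the replicate number as a block, with limma adjusted p of 0.0224 to 0.0451. Prkcb, a protein kinase C of blood cells, had 0.362 and 0.792 TPM with R406 and 5.60 and 2.23 TPM with DMSO. Its log2 difference was −1.56 (limma adjusted p = 0.0812), and it passed with the block (limma adjusted p = 0.0394). Without DMSO replicate 2 the log2 difference was −2.08, and without R406 replicate 2 it was −1.76. The mean of Prkcb with R406 was 0.577 TPM. It passed the filter only through the DMSO libraries, so its call with the block carries no weight by itself. The partners of Card9 pointed in opposite directions without a call, except with the replicate number as a block, where Malt1 was higher and Bcl10 lower. Malt1, a protease, had 2.77 and 3.00 TPM with R406 and 0.663 and 1.64 TPM with DMSO (adjusted p = 0.125), and the adaptor Bcl10 had 21.9 and 22.1 TPM against 31.3 and 31.5 TPM (adjusted p = 0.153).

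Plcg2, Btk and Vav1 were each a small part of their family's RNA. TPM is scaled by length, so levels can be set side by side between genes. Plcg1, the widely expressed relative of Plcg2, had 17.9 and 15.1 TPM with R406 and 27.3 and 23.5 TPM with DMSO (log2 −0.59, limma adjusted p = 0.143), and Plcg2 made up 5.16 ± 1.79% of the pair's TPM with R406 and 2.98 ± 0.149% with DMSO (SD, n = 2 libraries each). Vav3 had 11.8 and 13.3 TPM with R406 and 21.1 and 20.9 TPM with DMSO (adjusted p = 0.0856) and Vav2 had 4.26 and 2.84 TPM against 5.26 and 5.15 TPM (adjusted p = 0.279), so that Vav1 held 0.983% and 0.202% of the Vav total even in DMSO libraries. Tec, at 7.81 and 3.34 TPM with R406 and 6.26 and 4.70 TPM with DMSO, took nearly all of its family's TPM, and Btk held 3.60% and 2.06% of it with DMSO. Bmx and Txk were under 0.1 TPM in all 4 libraries.

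The scaffold and kinase families were split differently. Zap70, the relative of Syk known from T cells, had 1.15 and 1.42 TPM with R406 and 1.51 and 0.617 TPM with DMSO, values that overlapped those of Syk, whose share of the pair was 51.0 ± 13.2% with R406 and 52.8 ± 19.7% with DMSO (SD, n = 2 libraries each). Blnk led its family with 61.9 ± 4.41% of the summed TPM of Blnk, Lcp2 and Clnk in R406 libraries and 81.8 ± 3.59% in DMSO libraries. Clnk, a further scaffold of this family, had 0.895 and 0.558 TPM with R406 and 0.170 and 0.132 TPM with DMSO, under the filter. Card9 held 2.203 ± 1.789% of its family's TPM with R406 and 15.4 ± 0.904% with DMSO (SD, n = 2 libraries each). Card10, a relative of Card9 outside blood cells, had 2.87 and 1.20 TPM with R406 and 1.27 and 0.926 TPM with DMSO, while Card14 stayed under 0.2 TPM. Lat and Lat2, membrane scaffolds for Lcp2 and Plcg proteins, were under 0.8 TPM in all 4 libraries. With 2 libraries a side no exact permutation test of a share could reach significance, and none was run.

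**Figure D3:**
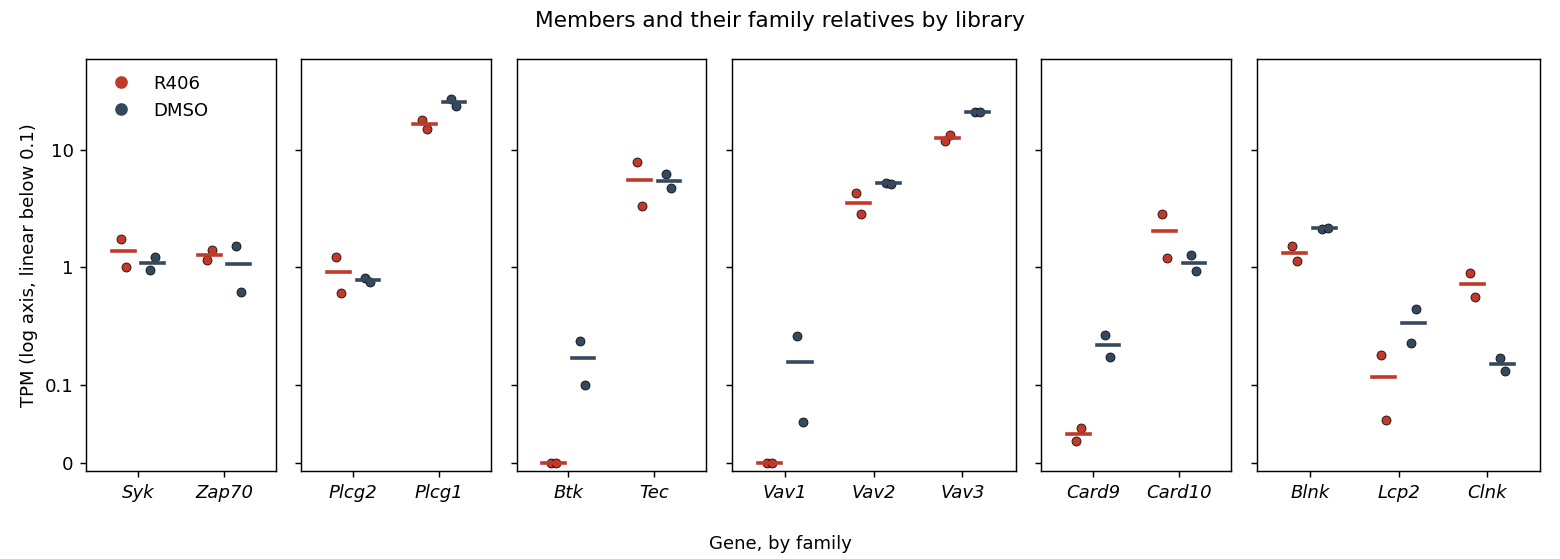
TPM by library (points, R406 left of DMSO) and the mean (bars) for 6 members and their relatives, 1 panel per family, on an axis that is logarithmic above 0.1 TPM and linear below. Plcg1, Tec, Vav2 and Vav3 lie above 2 TPM in all 4 libraries, while Btk and Vav1 are at 0 in both R406 libraries and Syk and Zap70 share 1 range.

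The genes whose profile over the 4 libraries was most like that of Syk, by the Euclidean distance between log2(TPM + 1) values centred on each gene's mean, were Rfesd, Pyroxd1, Arhgap19, Fgf9 and Zfp1, at distances of 0.0155 to 0.0697. Those nearest to Tyrobp were Scara3, Ms4a7, Il33, Ugt2b34 and Aif1l, at 0.226 to 0.357, and only Ms4a7 of these is on the macrophage list. Scara3, a scavenger receptor, had 2.29 and 1.28 TPM with R406 and 21.9 and 21.0 TPM with DMSO, and Il33, a cytokine of stromal and epithelial cells, had 2.43 and 2.64 TPM with R406 and 28.8 and 26.6 TPM with DMSO. A difference of similar size follows from how these genes were picked. With 4 libraries, likeness of profile is a description only.

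The other readout was the position of the FLAG-Nfatc1 peaks, compared between the genes' spans with 5000 bp on either side. The authors called peaks in each library separately, 36885 with R406 and 21246 with DMSO. With 1 library per condition there is no test, and the longer R406 list gives more peaks at any set of genes: 41.4% of the R406 peaks overlapped a DMSO peak by at least 1 bp, and 73.0% of the DMSO peaks overlapped an R406 peak. Of the 10 windows, 9 held a peak of the R406 list and 4 held a peak of the DMSO list. In the same windows of 20663 protein-coding genes the shares were 55.6% with R406 and 40.1% with DMSO, and among those with a mean of at least 1 TPM they were 75.4% and 56.5%. Clec4n, the gene with the largest fall in RNA among the 10, had 0 peaks of either list within its window or within 20000 bp.

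The strongest peak lay past the end of Syk. It spanned chr13:52651524-52652649 (mm10) in the R406 list, 2732 bp beyond the last base of the gene (chr13:52582610-52648792, plus strand), and chr13:52651531-52652686 in the DMSO list, 2739 bp beyond it. The summits were 24 bp apart. The authors' fold enrichment at the summit was 88.6 in the R406 list, rank 108 of 36885, and 47.4 in the DMSO list, rank 177 of 21246. Within its own list the peak was thus among the top 0.293% with R406 and the top 0.833% with DMSO, and folds from separate lists are not compared. No other RefSeq gene overlapped it, and the nearest, BB123696, was 76721 bp away. The RNA of Syk, in other cells, stood near 1 TPM in both conditions.

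The R406 list held 3 further peaks in the Syk window. A weak peak at chr13:52583433-52583727 sat on the first of the 2 RefSeq start sites used for Syk, at chr13:52583437. The gene span begins before that site, at chr13:52582610. The peak's summit lay 140 bp after that start site, with a fold of 5.69 (rank 29592 of 36885). The next, at chr13:52647885-52648158, lay inside the gene near its end (fold 6.33), and another, at chr13:52650783-52651105, lay 1991 bp past it (fold 11.4). The DMSO list had no other peak there.

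**Figure D4:**
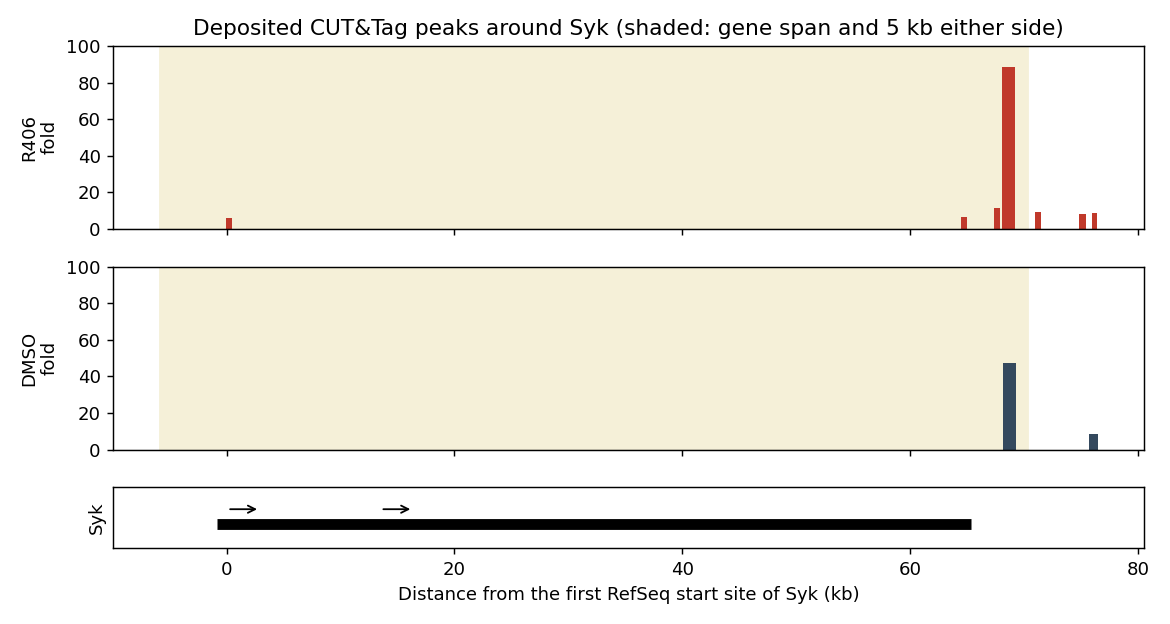
Deposited FLAG-Nfatc1 peaks around Syk in the R406 list (top) and the DMSO list (middle), with the authors' fold enrichment as bar height, each within its own list. The horizontal axis is the distance in kb from the first RefSeq start site used (chr13:52583437), which lies inside the gene span. Bars are drawn at least 0.5 kb wide, the lower track shows the gene span with arrows at the RefSeq start sites, and the tallest bar of both lists (88.6 with R406 and 47.4 with DMSO) stands at the same place past the gene's end.

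The promoters of Syk are shown because an R406 peak lies at the end of the first of them, and that of Fcer1g because its RNA fell. They are the 250 bases before each start site of the RefSeq promoter set (GRCm38.p6, the assembly of mm10), 5′ to 3′ along the gene's strand. The NFAT core motif GGAAA, or TTTCC on the other strand, is in capitals. Both Syk windows lie inside the gene span, which begins at chr13:52582610. The Syk windows lie at chr13:52583187-52583436 and chr13:52596632-52596881 on the plus strand, and the Fcer1g window at chr1:171234350-171234599 on the minus strand.
Syk, first start: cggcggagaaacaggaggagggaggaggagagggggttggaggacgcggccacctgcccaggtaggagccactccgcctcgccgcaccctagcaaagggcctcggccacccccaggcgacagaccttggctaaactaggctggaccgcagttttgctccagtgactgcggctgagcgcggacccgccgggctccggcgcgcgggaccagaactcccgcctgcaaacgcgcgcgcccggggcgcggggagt
Syk, second start: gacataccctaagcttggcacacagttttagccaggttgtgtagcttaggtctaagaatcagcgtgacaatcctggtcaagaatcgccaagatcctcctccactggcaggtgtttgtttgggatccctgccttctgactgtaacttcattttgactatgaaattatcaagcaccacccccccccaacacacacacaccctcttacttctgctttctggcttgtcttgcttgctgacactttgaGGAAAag
Fcer1g: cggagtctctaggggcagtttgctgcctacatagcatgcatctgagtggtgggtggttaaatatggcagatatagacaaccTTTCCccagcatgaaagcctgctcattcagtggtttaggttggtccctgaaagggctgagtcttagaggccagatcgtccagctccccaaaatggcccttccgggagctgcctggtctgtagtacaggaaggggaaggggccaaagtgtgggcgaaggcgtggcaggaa
The first Syk window, which the R406 peak only touches at its last bases, has 0 matches to the core, the second has 1, which begins 7 bases before the start, and Fcer1g has 1 in the reverse direction, 169 bases before its start. Of 32851 RefSeq promoter windows of the same length, 55.6% hold the core on either strand, and it was present in 5 of 9 windows of the 8 members that matched the table. The PU box core GAGGAA, or TTCCTC on the other strand, which the myeloid factor encoded by Spi1 reads, was in 2 of the 9 windows, the second of Syk and that of Vav1, and in 23.3% of all windows. In the second Syk window it overlaps the NFAT core. Tyrobp and Clec4n are not in the promoter table. These matches are letters in a window and show no binding.

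The other peaks near members mostly sat in neighbouring genes. Of the 13 R406 peaks in the windows, 6 overlapped another RefSeq gene, as did 2 of the 4 DMSO peaks. Near Tyrobp both lists had a peak over Nfkbid, 4137 bp from Tyrobp with R406 (fold 11.4) and 4281 bp with DMSO (fold 8.01). Near Lcp2 both lists had a peak within 4930469K13Rik, 3463 bp from Lcp2 with R406 (fold 10.1) and 3545 bp with DMSO (fold 5.83).

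Around Btk the R406 list had a peak over Rpl36a, 1697 bp from Btk (fold 20.9), and near Card9 it had a peak over Dnlz (fold 9.49) and another within the gene at Gm13562 (fold 5.69), while the DMSO list had 0 at both. Peaks in no other gene were found 3128 bp from Vav1 (R406, fold 12.65) and inside Plcg2, 64147 bp after its start (R406, fold 6.33). Blnk had a peak in each list at different places, inside the gene with R406 (chr19:40935250-40935540, fold 8.22) and 1762 bp outside it with DMSO (chr19:40995983-40996278, fold 14.6). In all, 3 R406 peaks, at Syk, Tyrobp and Lcp2, overlapped a DMSO peak, and 1 had its summit within 1000 bp of a RefSeq start of a member, that of Syk.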

How the data were processed

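The authors deposited TPM per gene, in 1 table and in 1 file per RNA-seq library (all 4 files equal to the table's columns); HISAT2 2.1.0, StringTie 2.0 and mm10 are named per the submitters' processing notes. For CUT&Tag they deposited 1 peak list per library, with a fold ratio, a −log10 p-value and q-value, and a score that is not used here; per the submitters' processing notes Bowtie2 2.2.5 and MACS2 2.1.2 were among the tools. Whether the blank served as control is not given in the sources used here. Groups come from the sample titles. All 175 listed genes were matched by symbol. The two-sided test between R406 and DMSO used log2(TPM + 1) and limma (3.58.1, R 4.3.3) with its trend option, with Benjamini-Hochberg adjustment and a threshold of 0.05, after a filter at a mean of 1 TPM. The fit was tested on simulated data. TPM keeps no depth, so no counting interval is given. Gene spans and promoters come from RefSeq (GRCm38.p6). Named were all members, their family relatives, called genes of the pathway lists, up to 4 genes per other list by smallest p, and the 5 genes nearest to Syk and Tyrobp. Members, lists and this rule were chosen with earlier results of these data known. Bcl10, Spi1, Cd14, Nkg7, Cd2, Pik3cd and markers listed at 0 were named after their values were seen. Results on some withheld items are not reported here.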

Additional observations from a re-analysis of the deposited data

How the results depend on the processing

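Clec4n, Tyrobp and Fcer1g kept their direction and their calls under every setting in which they were tested, with limma adjusted p of 0.000612 to 0.0195, except with no filter on low values, where each stood at 0.0593; a mean of at least 5 TPM left only Clec4n to test. Calls among the 10 genes numbered 0 with no filter and 1 at 5 TPM, and 3 on leaving out any library. Genes higher and lower in R406 numbered 593 and 564, and 159 to 914 and 158 to 574 on leaving out a library, namely 159 and 158 when DMSO replicate 1 was left out, 383 and 335 when DMSO replicate 2 was, and 914 higher when R406 replicate 2 was. They were 0 and 0 with no filter, 311 and 332 at 5 TPM, 933 higher with median centring, 900 higher without mitochondrial and ribosomal protein genes, and 850 lower with quantile normalization; the cause was not tested. Pathway calls, 3 in all, were 3 to 5 on leaving out a library, 5 with quantile normalization, 0 with no filter or at 5 TPM, and 6 at 0.2 TPM, where Hcls1, Inpp5d and Rac2 also fell. With the replicate number as a block there were 2128 genes higher, 2535 lower and 16 pathway calls, and the same 3 members were called. Of these pathway calls 2 were higher, Malt1 and Pik3cb, and 14 were lower, which included Bcl10, Gab2, Plcg1, Src and Vav3. Deviations of same-numbered libraries correlated at 0.556 over 13929 genes, but no label says that numbers mark a shared culture. On leaving out 1 library at a time, log2 differences that turned sign ranged from −0.054 (without R406 replicate 1) to 0.392 for Syk, −0.344 to 0.037 for Lyn, −0.138 to 0.495 for Zap70, −0.058 to 0.405 for Itga2b, −0.004 to 0.654 for Cd14, −1.899 to 0.099 for Gp1bb and −0.568 to 0.455 for Tec, and Tek was −0.059 with quantile normalization; none of these genes was called without the block, and with it Gp1bb was (adjusted p = 0.0161). Member windows with a peak numbered 4 for R406 and 0 for DMSO within the gene span alone, where the shares over protein-coding genes were 47.2% and 32.8%. With 20000 bp on either side they numbered 9 for R406 and 7 for DMSO, beside shares of 68.1% and 52.8%. With the summit required inside the window they numbered 8 and 4, beside 55.2% and 39.8%.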
